A study of Mus musculus with 24 samples.

Results

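Ion transport genes of tear fluid secretion were followed through the RNA sequencing of mouse lacrimal gland (LG) and of lacrimal gland stem cells (LGSC). The 8 genes, out of 63862 identifiers listed per library, were taken from a list of chloride, potassium and sodium transport genes and matched by Ensembl identifier: Slc12a2 (ENSMUSG00000024597), Slc4a2 (ENSMUSG00000028962), Atp1b1 (ENSMUSG00000026576), Fxyd3 (ENSMUSG00000057092), Kcnma1 (ENSMUSG00000063142), Kcnn4 (ENSMUSG00000054342), Cftr (ENSMUSG00000041301) and Ano1 (ENSMUSG00000031075). All 8 were listed in every library.

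Acinar and ductal cells of the LG move water into tears by moving salt first. The sodium pump keeps sodium inside the cell low, the cotransporter and the anion exchangers of the basolateral membrane load the cell with chloride, potassium channels hold the membrane voltage that drives chloride out, and apical chloride channels release it into the lumen, where sodium and water follow. When a nerve signal raises calcium in the cell, calcium-activated potassium and chloride channels open and secretion starts.

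All samples came from C57BL/6 mice, with no transgene or drug named for the animals. The LGSC medium, unlike the tissue samples, held the ROCK inhibitor Y-27632. The tissue groups were adult LG (3 libraries, age not given for these animals), embryonic LG at day E17.5 (3) and embryonic LG at E19.5 (3). The LGSC groups were spheres of passage 2, grown from LG cells of mice 6 to 8 weeks old in Matrigel with a serum-free medium holding EGF, FGF10, Wnt3A and Y-27632, and collected at day 5 (2 libraries), day 7 (3), day 10 (3) and day 14 (3). Whether the libraries of a group came from separate animals or cultures is not stated, so the p-values below measure the spread between libraries, which may be technical. All values are FPKM (fragments per kilobase of exon, scaled to library size) as the authors deposited them.

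Read numbers recovered from the FPKM were 6434734 to 9258020 per library. Adult LG replicates 1 and 2 stood apart, since the 10 most abundant genes took 60.4% and 59.6% of their reads, against 31.3% in adult LG replicate 3 and at most 8.1% in the other libraries. Their FPKM were also on another scale, with recovered reads at 2.667 and 2.567 times the size the values are scaled to, against 0.832 to 1.129 elsewhere. LGSC replicate 2 had the lowest Krt18, a simple-epithelium keratin, at all 4 days (130 to 176 FPKM, against 689 to 1734 in replicates 1 and 3). Summed fibroblast markers were 4705 to 5680 FPKM in embryonic LG, 164 to 323 in adult LG and at most 1.41 in LGSC, and summed acinar markers were at least 246853 FPKM in adult LG and at most 98.7 in the other groups. Krt8 and Epcam, which mark the gland's epithelium, were listed at 0 in all 20 libraries although a deeper library of passage 10 LGSC, made with another gene list, listed them at 414 and 261 FPKM. A low or zero value may therefore be a failed count rather than a low level, which was not tested, and levels of different genes are compared here only as listed.

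The 250 bases before the annotated start are shown for Cftr, Kcnn4 and Atp1b1, the members that passed a test between groups and whose stretch overlaps no annotated exon: Cftr was higher in embryonic than in adult LG, Kcnn4 was lower, and Atp1b1 was lower in LGSC at day 7. The sequences are those of RefSeq on GRCm38.p6, at chr6:18170437-18170686 (plus strand), chr7:24370013-24370262 (plus strand) and chr1:164458356-164458605 (minus strand). A promoter was matched for 7 of the 8 members. Capitals mark matches on either strand to the GC box (GGGCGG), the TATA box (TATAAA), the CCAAT box (CCAAT) and the E-box (CANNTG).
Cftr: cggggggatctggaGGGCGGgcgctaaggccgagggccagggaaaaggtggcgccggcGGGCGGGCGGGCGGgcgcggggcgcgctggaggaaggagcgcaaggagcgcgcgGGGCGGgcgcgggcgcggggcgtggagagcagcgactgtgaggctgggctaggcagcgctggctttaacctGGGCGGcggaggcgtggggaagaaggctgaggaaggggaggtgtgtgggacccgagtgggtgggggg
Kcnn4: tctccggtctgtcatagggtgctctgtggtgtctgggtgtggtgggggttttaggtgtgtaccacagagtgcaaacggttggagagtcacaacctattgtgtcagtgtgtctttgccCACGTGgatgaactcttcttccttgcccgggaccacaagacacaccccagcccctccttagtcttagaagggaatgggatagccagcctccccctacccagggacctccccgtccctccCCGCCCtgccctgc
Atp1b1: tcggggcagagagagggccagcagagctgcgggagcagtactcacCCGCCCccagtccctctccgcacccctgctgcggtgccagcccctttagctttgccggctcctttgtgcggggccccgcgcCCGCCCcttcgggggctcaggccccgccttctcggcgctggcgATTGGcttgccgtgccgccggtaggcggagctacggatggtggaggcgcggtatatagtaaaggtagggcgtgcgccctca
The Cftr stretch held 6 GC box matches, of which 3 overlap each other in one run, in a sequence of 76.4% G and C. The Kcnn4 stretch held 1 GC box and 1 E-box match at 58.8% G and C, and the Atp1b1 stretch 2 GC box matches and 1 CCAAT match at 70.4%. None of the 3 held TATAAA, and no match to one motif overlapped a match to another. Of 32851 promoter stretches of this length, 32.7% held the GC box, 12.4% the TATA box, 33.8% the CCAAT box and 66.2% the E-box, and the median share of G and C was 52.4%. A match is a description of the letters, not evidence of binding.

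**Figure D1:**
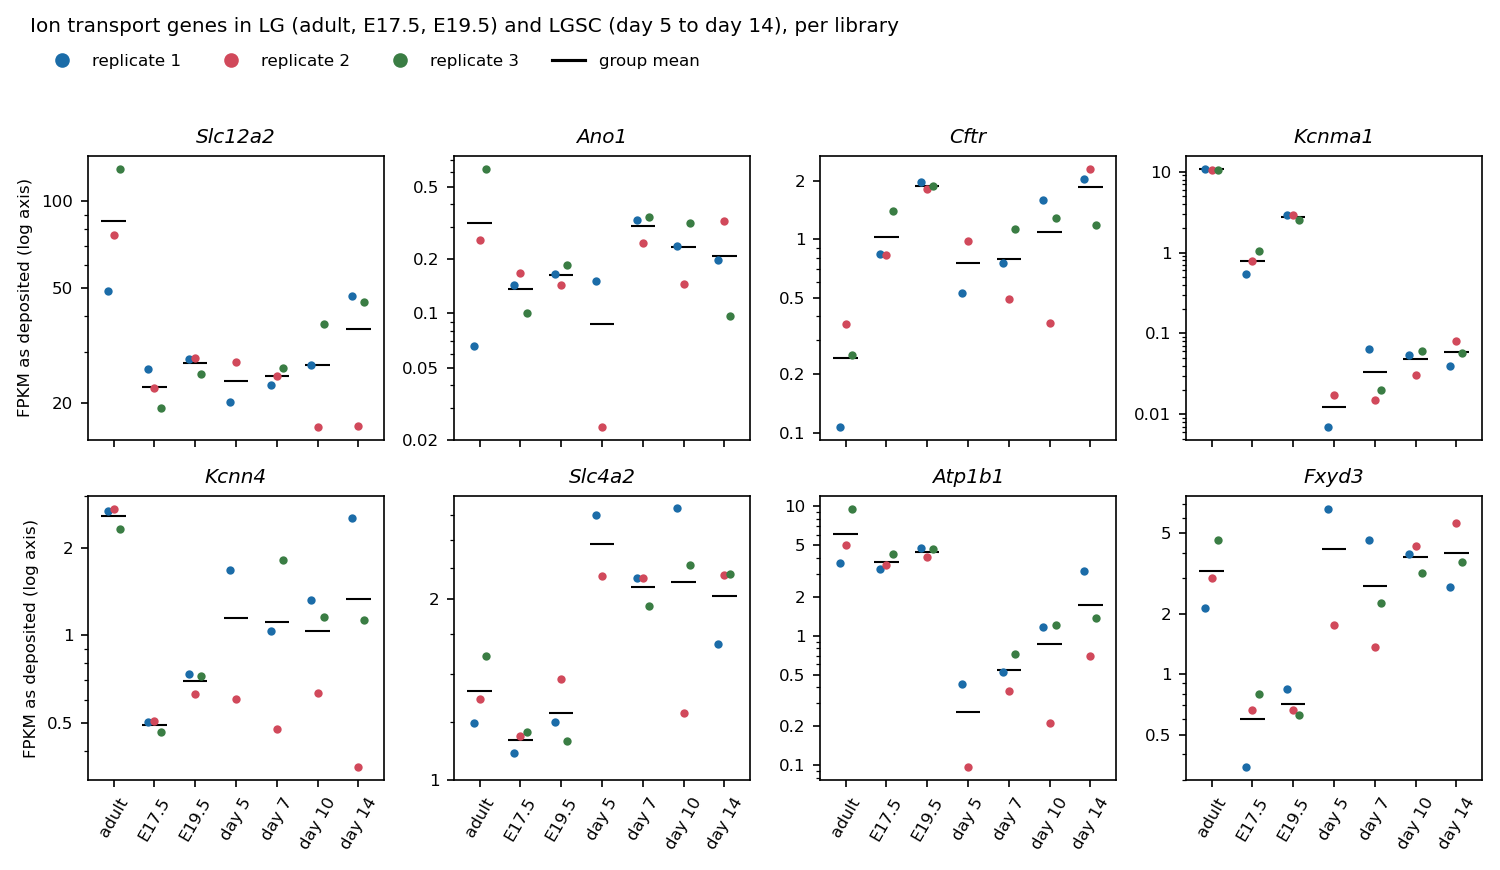
FPKM of the 8 genes in each of the 20 libraries (log axis), by group, coloured by replicate number, with a line at the group mean. Kcnma1 averaged 10.7 FPKM in adult LG, 2.78 at E19.5, 0.793 at E17.5 and at most 0.0794 in any LGSC library, while Slc4a2 lay between 1.11 and 2.82 in all libraries.

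Slc12a2 (the NKCC1 cotransporter, which loads secretory cells with sodium, potassium and chloride) had the highest FPKM of the 8 genes in every library. Adult LG replicates 1 to 3 had 49.0, 76.6 and 130.0 FPKM, E17.5 LG had 26.2, 22.6 and 19.2, and E19.5 LG had 28.5, 28.6 and 25.3. The adult libraries were all above the embryonic ones but differed among themselves more than any other group, with replicate 3 the highest. The adult mean was 85.2 ± 41.2 FPKM (SD, n = 3), 3.76 times that of E17.5 (22.7 ± 3.52) and 3.10 times that of E19.5 (27.4 ± 1.87). On the scale of log2(FPKM + 1), Slc12a2 fell by 1.76 (SE 0.31) at E17.5 and by 1.49 (SE 0.31) at E19.5 against adult LG (limma, Benjamini-Hochberg adjusted p = 0.00152 and 0.00386). Both calls were lost when libraries were scaled to their recovered reads (−0.77, adjusted p = 0.256, and −0.61, adjusted p = 0.376). That scaling raised the median of all tested genes to 0.64 and 0.58, from 0.05 and 0.09, so relative to the median Slc12a2 was at −1.41 and −1.19. Without adult LG replicates 1 and 2 the differences were −2.48 and −2.21 (adjusted p = 0.000188 and 0.00032). In bulk tissue, fewer cells of a type and less RNA per cell cannot be told apart.

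In LGSC, the day 5 libraries (replicates 1 and 2) held 20.1 and 27.7 FPKM of Slc12a2. The day 7 libraries held 23.2, 24.8 and 26.4, those of day 10 held 27.1, 16.5 and 37.6, and those of day 14 held 47.0, 16.7 and 44.7. Day 7 libraries lay close together and below every adult library, and by day 14 replicate 2 was the lowest while replicates 1 and 3 were the highest LGSC libraries. At day 7 Slc12a2 fell by 1.63 (SE 0.36) against adult LG (limma, adjusted p = 0.0150). The call passed narrowly: it was lost without LGSC day 7 replicate 1 or 3 or adult LG replicate 2 (adjusted p = 0.0577, 0.0528 and 0.0501) and with scaling to recovered reads (−0.53, adjusted p = 0.490). That scaling moved the median of all genes at day 7 from −0.08 to 0.60, and relative to the median Slc12a2 was at −1.13, against −1.55 without it.

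Slc4a2 (the AE2 anion exchanger, which takes up chloride against bicarbonate) differed least between tissue groups. It had 1.25, 1.36 and 1.61 FPKM in adult LG, 1.11, 1.18 and 1.20 at E17.5, and 1.25, 1.47 and 1.16 at E19.5. Its log2 difference from adult LG was −0.15 at E17.5 (95% interval −0.43 to 0.14, adjusted p = 0.34) and −0.07 at E19.5 (−0.35 to 0.22, adjusted p = 0.673, limma). With scaling to recovered reads the differences were 0.32 and 0.34, which is −0.32 and −0.24 relative to the median of all genes (−0.20 and −0.16 without the scaling). LGSC had 1.29 to 2.82 FPKM over all 4 days, with 10 of 11 libraries above every LG library. At day 7 the 3 LGSC libraries (2.17, 2.17 and 1.95) did not overlap the adult ones, and the log2 difference of 0.36 (95% interval −0.05 to 0.78) had an adjusted p of 0.147 in limma. With scaling to recovered reads it was 0.92 (adjusted p = 0.0374), but relative to the median of all genes it was 0.31, against 0.45 without the scaling. The 1 added to FPKM limits such moves in genes of low FPKM. Of its exon bases, 13.7% are shared with genes on the other strand (mainly Fastk, listed at no more than 0.0588 FPKM).

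Atp1b1 (the beta 1 subunit of the sodium pump, needed to carry the pump to the membrane) separated tissue from culture. Adult LG had 3.63, 5.02 and 9.53 FPKM, E17.5 LG 3.30, 3.54 and 4.26, and E19.5 LG 4.71, 4.04 and 4.63. The embryonic libraries lay within or just below the adult range, and the log2 differences from adult LG of −0.51 (E17.5, 95% interval −1.13 to 0.12) and −0.28 (E19.5, −0.91 to 0.34) did not pass the test (limma, adjusted p = 0.148 and 0.406). Adult LG replicate 3 set much of this spread. With it as the only adult library, Atp1b1 was at −1.17 and −0.95 (adjusted p = 0.00165 and 0.00378), while without it the E19.5 difference was 0.05, and without replicate 1 the E17.5 difference was −0.77 (adjusted p = 0.0287). With scaling to recovered reads the differences were 0.24 and 0.37, which is −0.40 and −0.21 relative to the median of all genes.

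In LGSC, the day 5 libraries held 0.420 and 0.0957 FPKM of Atp1b1. The day 7 libraries held 0.526, 0.374 and 0.725, those of day 10 held 1.17, 0.211 and 1.20, and those of day 14 held 3.13, 0.693 and 1.37. Every passage 2 LGSC library was below every LG library. The passage 10 library listed 6.33 FPKM, above the adult mean of 6.06, and whether the low passage 2 values are failed counts was not tested. At day 7 Atp1b1 fell by 2.11 (SE 0.33) on the log2 scale against adult LG (limma, adjusted p = 0.00419), and the ratio of the means was 11.2. This call was lost only with scaling to recovered reads among the alternatives run (−1.34, adjusted p = 0.0747, or −1.95 relative to the median of all genes). The day 7 values rested on 9 to 20 reads each, and 18.7% of the exon bases are shared with Nme7 on the other strand, listed at no more than 0.306 FPKM.

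Atp1b3, another beta subunit of the pump, was listed at 119 to 595 FPKM across the 20 libraries, far above Atp1b1. Its differences did not pass the test in any of the 6 comparisons (limma, adjusted p of 0.24 or more).

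Fxyd3 (a small regulator of the sodium pump) was low in the embryonic gland. Adult LG had 2.14, 2.99 and 4.62 FPKM, E17.5 LG had 0.345, 0.663 and 0.799, and E19.5 LG had 0.849, 0.665 and 0.631. The embryonic libraries were all below the adult ones, and Fxyd3 fell by 1.38 (SE 0.22) at E17.5 and by 1.27 (SE 0.22) at E19.5 on the log2 scale (limma, adjusted p = 0.000918 and 0.00151). With scaling to recovered reads the differences were −0.76 and −0.70 (adjusted p = 0.0952 and 0.126), or −1.40 and −1.28 relative to the median of all genes. In LGSC, the day 5 libraries held 6.62 and 1.76 FPKM, those of day 7 held 4.63, 1.37 and 2.26, those of day 10 held 3.96, 4.31 and 3.19, and those of day 14 held 2.71, 5.65 and 3.62. These values overlapped the adult ones at each day, and the day 7 difference of −0.23 (95% interval −1.15 to 0.68) did not pass (limma, adjusted p = 0.663). Of the exon bases of Fxyd3, 42.5% are shared with Lgi4 on the other strand. Lgi4 was listed at 0.543 to 1.60 FPKM in adult LG, 1.12 to 2.17 in embryonic LG and at most 0.170 in LGSC, and its part in the Fxyd3 values was not tested.

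Kcnma1 (the pore of the BK channel, opened by calcium and voltage) had the largest differences of the 8 genes. Adult LG had 10.9, 10.6 and 10.5 FPKM, E19.5 LG 2.92, 2.92 and 2.49, and E17.5 LG 0.545, 0.782 and 1.05. The 3 tissue groups did not overlap, and the adult libraries had an SD of 0.231 FPKM on the deposited scale. Scaled to recovered reads, the adult values were 4.10, 4.12 and 9.53. As deposited, the adult mean was 13.5 times that of E17.5 and 3.84 times that of E19.5. Kcnma1 fell by 2.71 (SE 0.14) at E17.5 and by 1.63 (SE 0.14) at E19.5 against adult LG on the log2 scale (limma, adjusted p = 1.94e-06 and 3.44e-05), and both calls held under all 19 alternatives run. E19.5 was higher than E17.5 by 1.08 (SE 0.14, adjusted p = 0.0135). That last call was lost in 6 of 17 alternatives, among them those without E17.5 LG replicate 1 or 2 or E19.5 LG replicate 2 or 3 (0.98 to 1.14, adjusted p = 0.0555 to 0.0791) and with scaling to recovered reads (1.01, adjusted p = 0.176). Smooth muscle also uses the BK channel, and summed smooth muscle and myoepithelial markers were 158 to 311 FPKM at E17.5, 1029 to 1112 at E19.5 and 125 to 618 in adult LG, whose part in the result was not tested. Of the 7 markers summed, 5 averaged 0.5 FPKM or more in each tissue group. Myh11, a defining smooth muscle marker, was listed at 0 in every E19.5 and adult library, which may be a failed count. In LGSC, Kcnma1 was listed at 0.00693 to 0.0794 FPKM, which is 1 to 12 reads per library, too low to test between days. At day 7 it fell by 3.50 (SE 0.17) against adult LG (limma, adjusted p = 9.22e-05). It entered that test only through its adult level, so this call follows in part from the filter on low values. The summed smooth muscle and myoepithelial markers there were 5.09 to 18.1 FPKM. Of the exon bases of Kcnma1, 5.98% are shared with 4930519K11Rik on the other strand. That gene was listed at 0.386 to 1.32 FPKM in adult LG, at most 0.0599 at E17.5 and 0.0518 to 0.237 at E19.5, and its part was not tested.

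BK channels of secretory glands work with accessory subunits. Kcnmb4 rose at E17.5 and E19.5 against adult LG by 1.11 (SE 0.13) and 0.95 (SE 0.13) on the log2 scale (limma, adjusted p = 0.000192 and 0.000486), with 0, 0 and 0.197 FPKM in adult LG and 0.920 to 1.35 in embryonic LG. It entered these tests only through its embryonic level, so the calls follow in part from the filter on low values. Kcnmb1, the subunit of smooth muscle, had 0.452 to 1.41 FPKM in adult LG and 0.569 to 1.58 in embryonic LG and did not pass (adjusted p = 0.633 at E17.5 and 0.422 at E19.5). Lrrc26, a subunit of BK channels in non-excitable cells, was listed at 0 in all 20 libraries and at 10.4 FPKM in the passage 10 library.

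Kcnn4 (an intermediate-conductance potassium channel opened by calcium) was highest in adult LG, with 2.67, 2.71 and 2.31 FPKM. E17.5 LG had 0.503, 0.507 and 0.464 and E19.5 LG 0.738, 0.631 and 0.723, so the 3 tissue groups did not overlap. Kcnn4 fell by 1.26 (SE 0.12) at E17.5 and by 1.07 (SE 0.12) at E19.5 against adult LG on the log2 scale (limma, adjusted p = 4.48e-05 and 0.000124). The E17.5 call held under all 19 alternatives, and the E19.5 call under 18 of 19, with −0.49 and an adjusted p of 0.0518 when scaled to recovered reads, or −1.07 relative to the median of all genes. The difference between E19.5 and E17.5 did not pass (0.19, adjusted p = 0.528). In LGSC, the day 5 libraries held 1.68 and 0.605 FPKM, those of day 7 held 1.03, 0.475 and 1.81, those of day 10 held 1.33, 0.635 and 1.15, and those of day 14 held 2.52, 0.352 and 1.13. Replicate 2 was the lowest at all 4 days. At day 7 all 3 libraries were below adult LG, with a log2 difference of −0.81 (95% interval −1.45 to −0.16) and an adjusted p of 0.0586 in limma. Without LGSC day 7 replicate 3 it was −1.04 (adjusted p = 0.0433), and with scaling to recovered reads −0.11 (adjusted p = 0.809), or −0.71 relative to the median of all genes against −0.72 without the scaling.

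Cftr (the chloride and bicarbonate channel opened by cyclic AMP) ran the other way in the tissue. Adult LG had 0.107, 0.366 and 0.253 FPKM, which is 2, 9 and 15 reads. E17.5 LG had 0.844, 0.828 and 1.40 and E19.5 LG 1.99, 1.82 and 1.89. No embryonic library overlapped an adult one, and Cftr rose by 0.70 (SE 0.15) at E17.5 and by 1.23 (SE 0.15) at E19.5 on the log2 scale (limma, adjusted p = 0.00491 and 0.000254). Both calls held under all 19 alternatives. Cftr entered these tests only through its embryonic level, as its adult mean of 0.242 FPKM was under 0.5, so the filter favoured a rise. Relative to the median of all genes, Cftr was at 0.65 and 1.14, and at 0.21 and 0.73 with scaling to recovered reads. At such low values the 1 added to FPKM limits how far Cftr moves with the scaling. In scaled FPKM, adult LG had 0.0400, 0.142 and 0.230, E17.5 LG 0.869, 0.862 and 1.44, and E19.5 LG 1.98, 1.79 and 1.68. As deposited, the means were 4.23 and 7.85 times the adult mean. The E19.5 libraries were all above the E17.5 ones, but the difference of 0.53 (95% interval 0.18 to 0.88) did not pass over all genes (adjusted p = 0.143). LGSC of passage 2 had 0.368 to 2.33 FPKM, every library above the adult ones, though the lowest (day 10 replicate 2) was next to the highest adult value of 0.366. The passage 10 library had 0.141 FPKM. At day 7 the difference from adult LG was 0.52 (95% interval 0.02 to 1.02, adjusted p = 0.0969 in limma), and it passed with scaling to recovered reads (0.72, adjusted p = 0.0405) and in limma-voom on the recovered reads (1.64, adjusted p = 0.0487). Cftr entered the day 7 tests only through its LGSC level (day 7 mean 0.794 FPKM), so there too the filter favoured a rise. Relative to the median of all genes, the scaled difference was 0.12, against 0.60 without the scaling.

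Ano1 (the calcium-activated chloride channel of secretory glands, also called TMEM16A) was listed at 0.0236 to 0.630 FPKM in the 20 libraries, which is 1 to 30 reads. It did not reach the mean of 0.5 FPKM set for testing in any of the 6 comparisons. Adult LG had 0.0664, 0.253 and 0.630 FPKM, E17.5 LG 0.144, 0.166 and 0.100, and E19.5 LG 0.165, 0.143 and 0.184, so the adult libraries overlapped the embryonic ones. In LGSC, the day 5 libraries held 0.151 and 0.0236 FPKM, those of day 7 held 0.329, 0.246 and 0.340, those of day 10 held 0.235, 0.146 and 0.315, and those of day 14 held 0.198, 0.324 and 0.0964. Since the passage 10 library listed Ano1 at 35.7 FPKM, the level of this channel could not be judged from the 20 libraries.

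**Figure D2:**
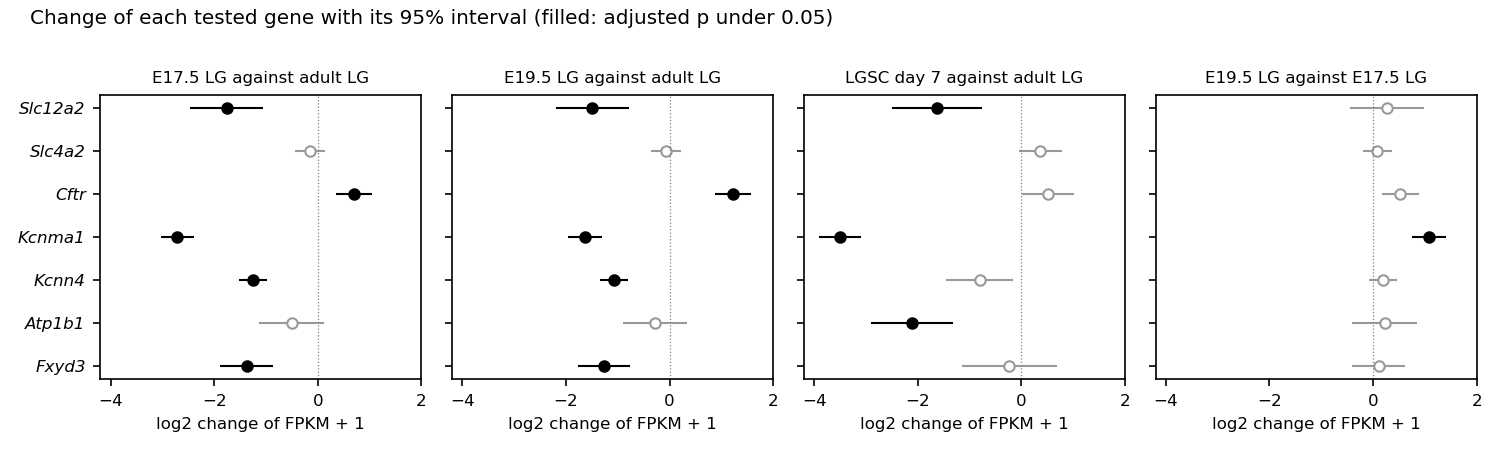
Difference of each tested gene on the log2(FPKM + 1) scale (points) with its 95% interval (lines) in 4 comparisons, filled where the adjusted p was under 0.05. Slc12a2, Kcnma1, Kcnn4 and Fxyd3 lay below 0 and Cftr above 0 in both embryonic comparisons, and only Kcnma1 passed between E19.5 and E17.5 (1.08).

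Read across the 8 genes, 5 of the 7 tested passed at E17.5 against adult LG (1 higher, 4 lower), where 54.0% of the 18578 genes tested passed (29.1% higher, 24.9% lower). The libraries of the 2 groups did not overlap for 6 of the 7, against 59.5% of all genes. At E19.5 again 5 of 7 passed (1 higher, 4 lower), against 54.2% of all genes (30.3% higher, 23.9% lower), and 5 did not overlap, against 58.8%. These 2 comparisons share the adult libraries, and Cftr, the 1 higher member, was tested in both only through its embryonic level. With scaling to recovered reads, 3 of 7 passed at E17.5 (1 higher, 2 lower), against 59.5% of 17408 genes. At E19.5, 2 of 7 passed with that scaling (1 higher, 1 lower), against 56.8%. The split of all genes moved from 5405 higher and 4634 lower to 8450 and 1913 at E17.5, and from 5637 and 4440 to 8054 and 1842 at E19.5. Leaving out adult LG replicates 1 and 2, a setting chosen after seeing the data, kept 1 adult library, so passing members are not counted there. Between E19.5 and E17.5, 1 of 7 passed, against 1.74% of all genes, or 1.11% upward and 0.624% downward, and 3 did not overlap, against 35.1%. At LGSC day 7 against adult LG, 3 of 7 passed, all lower (Kcnma1 tested only through its adult level), where 35.2% of 17698 genes passed (14.2% higher, 21.1% lower), and 6 did not overlap, against 52.4%. Scaled to recovered reads, 3 of 7 passed there too, where 44% of 16460 genes passed. Slc4a2 and Cftr (tested only through its LGSC level) were higher and Kcnma1 lower. On the log2(FPKM + 1) scale both rises were smaller relative to the median of all genes than without the scaling. The added 1 limits such moves in genes of low FPKM. All genes split into 5490 higher and 1754 lower in place of 2507 and 3731.

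**Figure D3:**
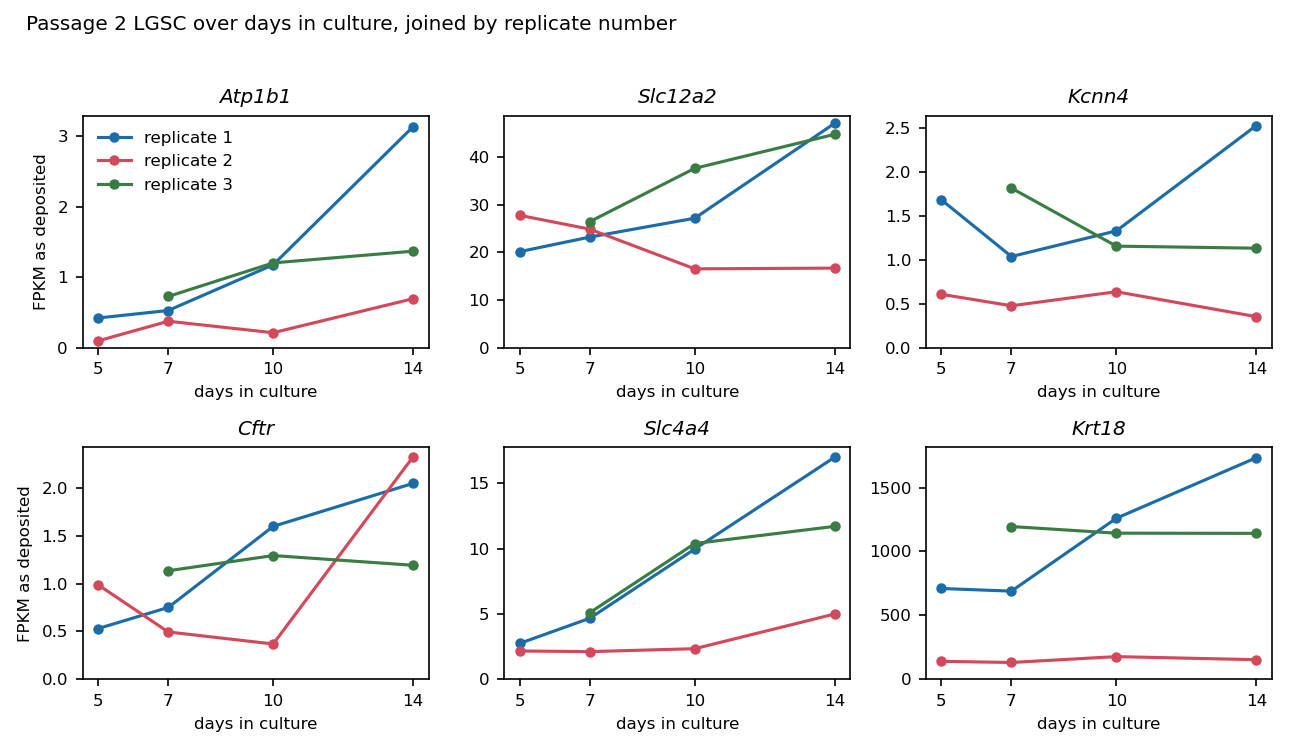
FPKM of 4 of the 8 genes, of Slc4a4 and of Krt18 over days in culture, one line per replicate number. Replicate 2 (red) was the lowest line for Atp1b1, Kcnn4, Slc4a4 and Krt18 at all 4 days, and the Atp1b1 mean went from 0.258 FPKM at day 5 to 1.73 at day 14.

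Over the days in culture, none of the 6 members that could be tested had a slope that passed in the fit without pairing, in which 2.14% of 15584 genes passed. Atp1b1 and Cftr had an unadjusted p under 0.05. Atp1b1 had a slope of 0.11 log2 units per day (SE 0.03, limma, adjusted p = 0.122), and Cftr 0.08 (SE 0.03, adjusted p = 0.157). In culture, libraries sharing a replicate number departed from their group means in the same direction (mean correlation 0.46), and with the replicate number as a block 1 of 6 members passed, against 5.02% of all genes and 2.12% upward. Blocked, Atp1b1 rose by 0.11 per day (SE 0.02, adjusted p = 0.0388). From day 7 to day 14 it was higher in each of the 3 replicates (from 0.526 to 3.13, from 0.374 to 0.693 and from 0.725 to 1.37 FPKM), and the ratio of the means was 3.20. Without day 5, where only 2 libraries were analysed, its slope was 0.11 (adjusted p = 0.433).

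Slc12a2 went different ways in the replicates. Between its first and last day, replicate 1 moved from 20.1 to 47.0 FPKM and replicate 3 from 26.4 to 44.7, while replicate 2 moved from 27.7 to 16.7. The slope over all 11 libraries was 0.05 (SE 0.04, adjusted p = 0.528), and 0.13 (adjusted p = 0.0238) without the replicate 2 libraries, a setting chosen after seeing the data. Krt15, a basal keratin, stood at 407 and 719 FPKM in replicate 2 at days 10 and 14, against 5.08 to 18.7 in replicates 1 and 3. The part of this difference in the Slc12a2 values was not tested.

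Between day 14 and day 7, none of the 6 members passed, and 0 of 15744 genes did in limma (1557 had an unadjusted p under 0.05, and limma-voom with the replicate block passed 116). Cftr had 2.05, 2.33 and 1.19 FPKM at day 14 against 0.751, 0.494 and 1.14 at day 7, with a difference of 0.67 (95% interval 0.11 to 1.22, adjusted p = 0.469). It was the only member whose day 14 and day 7 libraries did not overlap, as did 17.4% of all genes. Atp1b1 had a difference of 0.73 (95% interval −0.08 to 1.54, adjusted p = 0.522), Slc12a2 0.39 (−0.56 to 1.34), Fxyd3 0.46 (−0.44 to 1.37), Kcnn4 0.09 (−0.89 to 1.07) and Slc4a2 −0.04 (−0.41 to 0.34). Apart from that of Slc4a2, these intervals reach beyond 1 on the log2 scale, so a rise of that size is not excluded. Cftr, like Atp1b1, was higher at day 14 in each of the 3 replicates. With the replicate block, Atp1b1 had an SE of 0.27 (adjusted p = 0.381) and Cftr an SE of 0.26 (adjusted p = 0.391), and none of the 6 members passed.

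**Figure D4:**
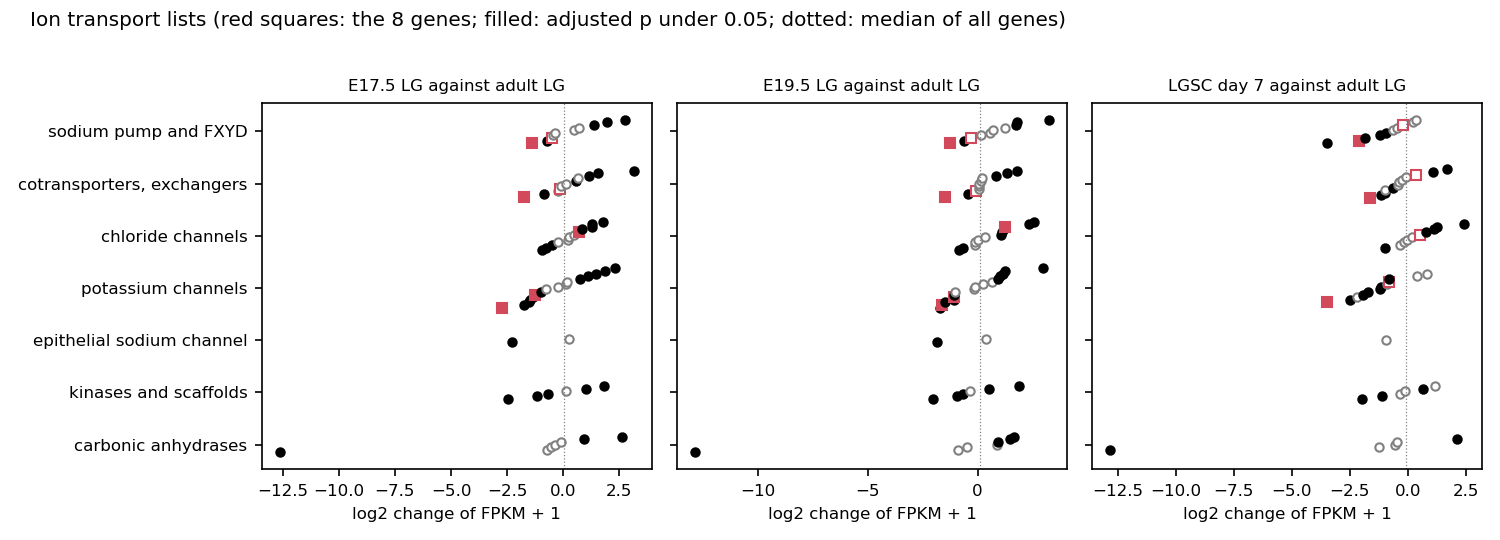
Differences of the tested genes of 7 ion transport lists on the log2(FPKM + 1) scale in 3 comparisons against adult LG. Red squares are the members among the 8 genes, filled symbols passed (adjusted p under 0.05), and the dotted line is the median of all genes. Car6 lies between −12.85 and −12.63 in the 3 panels, and the potassium channel list has members far on both sides in the embryonic panels and 0 passing above 0 at LGSC day 7 (1 with scaling to recovered reads).

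The 8 genes belong to a wider list of 111 ion transport genes, of which 103 were not members. At E17.5 against adult LG, 57 of these 103 could be tested, and 20 were higher and 15 lower, or 61.4% against 54.0% of all genes, with a median log2 difference of 0.14 against 0.05. At E19.5, 21 were higher and 13 lower of 57 (59.6% against 54.2%, median 0.25 against 0.09). At LGSC day 7, 8 were higher and 17 lower of 49 (51.0% against 35.2%, median −0.47 against −0.08). These splits depended on the scaling: with scaling to recovered reads, 28 were higher and 5 lower of 56 at E17.5, 26 and 4 of 56 at E19.5, and 10 and 5 of 42 at LGSC day 7, where the medians were 0.64, 0.69 and 0.21 against 0.64, 0.58 and 0.60 over all genes. Over all genes that scaling gave 8450 higher and 1913 lower at E17.5, 8054 and 1842 at E19.5, and 5490 and 1754 at LGSC day 7.

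Among sodium pump subunits and FXYD regulators, 3 of 10 tested were higher and 2 lower at both embryonic stages, against 54.0% and 54.2% of all genes passing. With scaling to recovered reads 3 and 5 were higher and 0 lower, and most of all passing genes were higher too (8450 against 1913 at E17.5). Fxyd6, a pump regulator of neural tissue, rose by 2.74 (SE 0.34) at E17.5 and 3.26 (SE 0.34) at E19.5 on the log2 scale (limma, adjusted p = 0.000229 and 0.0001), from 0.202 to 2.36 FPKM in adult LG to 9.68 to 21.1 in embryonic LG. Fxyd1 (phospholemman, best known from muscle) and Atp1b2 (the beta subunit of glia) were the other 2 that rose, and were named after their values were seen. Glial markers summed to 32.4 to 51.1 FPKM in embryonic LG and 5.21 to 19.2 in adult LG, with Sox10 listed at 0 throughout, and their part was not tested. At LGSC day 7, 5 of 10 fell, or 1 of 10 with scaling to recovered reads, where 35.2% and 44% of all genes passed. Fxyd1 fell most, by 3.46 (SE 0.44, adjusted p = 0.00202), from 6.45 to 24.5 FPKM in adult LG to 0.153 to 0.247, and was tested only through its adult level.

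Among potassium channels and their subunits, 12 of 16 passed at E17.5 (5 upward, 7 downward) and 11 at E19.5 (5 upward, 6 downward), against 54.0% and 54.2% of all genes. With scaling to recovered reads 6 passed upward and 4 downward of 15 at E17.5 and 5 and 2 at E19.5, against 59.5% and 56.8% of all genes, which were mostly upward. Kcne4, a subunit that restrains voltage-gated channels, rose by 2.96 (SE 0.31, adjusted p = 8.85e-05) at E19.5, with 3.21 to 7.70 FPKM in adult LG and 31.5 to 50.5 at E19.5. Kcnq1, a voltage-gated channel of secretory epithelia, rose between E17.5 and E19.5 by 1.32 (SE 0.17, adjusted p = 0.0125), from 1.39 to 1.79 FPKM to 4.76 to 6.15. The Kcnq1 call was lost without E17.5 LG replicate 1 or 2 or E19.5 LG replicate 2, with the replicate block and with scaling to recovered reads (adjusted p up to 0.127). The large calcium-activated channel Kcnma1 was the only other potassium channel gene to pass between the stages. At LGSC day 7, 7 of 12 fell and 0 rose, against 21.1% lower and 14.2% higher of all genes. With scaling to recovered reads 3 fell and 1 rose of 10, where 44% of all genes passed.

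Among chloride channels, 8 of 12 passed at each stage (5 upward and 3 downward at E17.5, 6 and 2 at E19.5), against 54.0% and 54.2% of all genes. With scaling to recovered reads 8 and 7 passed upward and 0 downward, and most of all passing genes were upward too (8450 against 1913 at E17.5). Ano7, a relative of Ano1, rose by 2.55 (SE 0.15, adjusted p = 4.39e-06) at E19.5 against adult LG and by 1.26 (SE 0.15, adjusted p = 0.00919) against E17.5, with at most 0.0792 FPKM in adult LG, 1.22 to 1.84 at E17.5 and 4.51 to 5.95 at E19.5. Against adult LG it was tested only through its embryonic level. The second Ano7 call was lost without E19.5 LG replicate 2 (adjusted p = 0.0508) and with pseudocount 0.1 (adjusted p = 0.0513). At LGSC day 7, 4 of 10 were higher and 1 lower, against 14.2% and 21.1% of all genes. Lrrc8c, a subunit of the volume-regulated anion channel, rose by 2.43 (SE 0.35, adjusted p = 0.00325), from 3.20 to 9.20 FPKM in adult LG to 28.5 to 36.3.

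Among cotransporters and exchangers, 6 of 11 passed at E17.5 (4 upward, 2 downward) and 5 at E19.5 (3 upward, 2 downward), against 54.0% and 54.2% of all genes. With scaling to recovered reads 7 and 5 passed upward and 0 downward, and most of all passing genes were upward too (8450 against 1913 at E17.5). Slc4a1 (the band 3 anion exchanger of red blood cells) rose by 3.15 (SE 0.20, adjusted p = 5.38e-06) at E17.5 and then fell by 1.35 at E19.5 against E17.5 (SE 0.20, adjusted p = 0.0208), with 8.15 to 9.72 FPKM at E17.5 and 2.41 to 3.39 at E19.5. Against adult LG it was tested only through its embryonic level. The second Slc4a1 call held in 9 of 17 alternatives and was lost without any 1 of the 6 embryonic libraries (adjusted p up to 0.302 over the alternatives). At LGSC day 7, 2 of 12 rose and 4 fell, or 3 and 0 of 9 with scaling to recovered reads, where 35.2% and 44% of all genes passed. Slc12a7, a potassium-chloride cotransporter, rose by 1.69 (SE 0.33, adjusted p = 0.00937). With the replicate block, Slc4a4 (a sodium-bicarbonate cotransporter) was the 1 non-member of 35 tested to pass over culture days (5.02% of all genes did), with 0.17 log2 units per day (SE 0.03, adjusted p = 0.0135, and 0.105 without the block). It had 2.74 and 2.15 FPKM at day 5, and 17.0, 4.99 and 11.7 at day 14.

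Among kinases and scaffolds of chloride transport, 5 of 6 passed at each embryonic stage (2 upward, 3 downward), where 54.0% and 54.2% of all genes passed. With scaling to recovered reads 3 passed upward and 1 downward at E17.5, and 2 and 1 at E19.5, where 59.5% and 56.8% of all genes passed, mostly upward. Slc9a3r1 (the scaffold NHERF1, which binds CFTR at the apical membrane) fell by 2.45 (SE 0.22) and 2.04 (SE 0.22) on the log2 scale (adjusted p = 3.94e-05 and 0.000125), with 319 to 543 FPKM in adult LG and 70.6 to 114 in embryonic LG. The kinase Stk39 (SPAK, which activates NKCC1) was listed at no more than 0.251 FPKM and not tested. Of the epithelial sodium channel, Scnn1a fell at E19.5 by 1.83 (SE 0.16, adjusted p = 4.1e-05), and in culture it was highest in replicate 2 at all 4 days (9.99 to 26.7 FPKM, against 1.70 to 3.02). Krt18, Krt15, Slc4a4 and the culture values of Scnn1a were named after their values were seen.

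Among carbonic anhydrases, which make bicarbonate, 3 of 7 passed at E17.5 (2 upward, 1 downward) and 4 at E19.5 (3 upward, 1 downward), against 54.0% and 54.2% of all genes. Car6, the secreted enzyme of salivary and lacrimal fluid, had 5463, 5639 and 15948 FPKM in adult LG and at most 0.893 in every other library. It fell on the log2 scale in all 3 comparisons with adult LG, with −12.63 (SE 0.40) at E17.5, −12.85 (SE 0.40) at E19.5 and −12.84 (SE 0.44) at LGSC day 7 (limma, adjusted p = 1.94e-07, 2.29e-07 and 3.65e-05). It entered these tests only through its adult level. Car14 rose by 2.59 (SE 0.39, adjusted p = 0.000631) at E17.5, and Car3 passed narrowly between E17.5 and E19.5 (1.79, SE 0.34, adjusted p = 0.0422). Car3 was listed at 0 in 2 of the 6 embryonic libraries and was tested only through its E19.5 level, so the filter favoured this rise. The Car3 call held in 4 of 17 alternatives and was lost without any 1 of the 6 embryonic libraries or adult LG replicate 2 (adjusted p up to 0.176). Car9, a membrane-bound enzyme induced by low oxygen, rose by 2.10 (SE 0.42, adjusted p = 0.0101) at LGSC day 7, a call lost without adult LG replicates 1 and 2 (1.65, adjusted p = 0.197).

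The genes whose log2(FPKM + 1) followed each member most closely over the 20 libraries, among the 13690 genes averaging 1 FPKM or more, are given as a description. For Slc12a2 these were Rasal1 (Pearson r = 0.925), Hsd11b1 (0.920) and Plscr2 (0.893). For Kcnma1 they were a locus assembled by the authors with no gene name (0.995), 5330417C22Rik (0.990) and Gm44501 (0.989). For Kcnn4 they were Wwc1 (0.949), Vamp1 (0.914) and an assembled locus (0.908), and for Atp1b1 Arhgef38 (0.969), Fzd4 (0.962) and Gpsm3 (0.951). For Fxyd3 they were Ucp2 (0.945), an assembled locus (0.937) and Ccdc84 (0.927). Cftr had the loosest match, with Zfp113 at 0.870, and Slc4a2 had Efna1 at 0.905 after 2 assembled loci. The points share 7 groups, so a gene that separates the groups in the same order has a high r whatever happens within them.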

How the data were processed

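RNA of 24 samples was selected by poly-T, made into libraries with a kit that does not mark strand and read at 150 bp; 21 libraries had a file, and 20 entered the fits (the 1 of passage 10 was described only). The authors deposited FPKM per identifier (63862, with 11226 assembled loci). The submitters' processing notes name CASAVA 1.8, HISAT2 2.0.5, featureCounts 1.5.0-p3 and build NCBIM37; the step to FPKM is not given in the sources used here. Of the Ensembl identifiers, 99.7% occur in GENCODE M21. Whole reads were recovered from the FPKM (6434734 to 9258020 per library, 92.6% to 93.6% of values whole within 0.01 reads, up to 1000 reads).

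Differences were fitted on log2(FPKM + 1) for genes averaging 0.5 FPKM or more, using limma 3.58.1 (trend, two-sided, Benjamini-Hochberg over all genes, threshold 0.05) in R 4.3.3, with Python 3.11.15, numpy 2.4.6, pandas 2.3.3, scipy 1.17.1 and matplotlib 3.10.9 for the rest. Tissue groups shared 1 fit, culture slopes used all 4 days, and the other comparisons used their own groups. The filter used the mean over the fit, so a gene low in 1 group could enter a test through another group alone. The fits were tested on simulated data. In culture, deviations of same-numbered libraries correlated in 15 of 15 pairs over 0.1 (mean 0.46), so blocked values are given there. Alternatives were pseudocount 0.1, other filters on low values, scaling to recovered reads or by the median of ratios, limma-voom on recovered reads, a replicate block, other sets of days and leaving out each library. Voom with the block, and leaving out adult LG replicates 1 and 2 or all LGSC libraries of replicate number 2, were chosen after seeing the data. The genes and lists were chosen with earlier results of these data known. Named are the 8 genes, their partners (1 of which is not reported here), and up to 3 list genes per direction and comparison with the largest passing change and a mean from 1 FPKM.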

Additional observations from a re-analysis of the deposited data

Results flagged for a closer look

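One library of passage 10 LGSC at day 7, which entered no comparison, listed 6 of the 8 genes above all 3 passage 2 libraries of day 7. It had 49.4 FPKM of Slc12a2, 35.7 of Ano1 (5307 reads), 23.8 of Kcnn4, 12.1 of Slc4a2, 6.33 of Atp1b1 and 26.8 of Fxyd3. Cftr (0.141 FPKM) and Kcnma1 (0.00248 FPKM, 1 read) lay below them. Its file was made against another gene list and is a single library, so the difference was not tested. Of 12572 genes at 1 FPKM or more in it, 5082 (40.4%) had a day 7 mean under 0.1 of its value and 1108 were listed at 0 in all 20 other libraries. Passage, processing and library cannot be told apart.

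The changes of Kcnma1 against adult LG differed between the embryonic stages by 1.08 on the log2 scale (limma, adjusted p = 0.0135), with the alternatives ranging from an adjusted p of 0.00497 to 0.176. In the shared fit this is the same test as that of E19.5 against E17.5 given above, not a further result.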

How the results depend on the processing

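Scaling to recovered reads left 3 of 7 members passing at E17.5 and 2 of 7 at E19.5 against adult LG, where 59.5% and 56.8% of all genes passed. Between the embryonic stages it left 0 of 7 members and 186 genes. It gave another sign to Slc4a2 (0.32 and 0.34) and Atp1b1 (0.24 and 0.37) against adult LG at E17.5 and E19.5, to Fxyd3 at LGSC day 7 (0.49) and to Slc4a2 between days 14 and 7 (0.0030). Relative to the median of all genes, which this scaling also moved, none of these changed sign. Between the embryonic stages 323 genes passed, and 162 with pseudocount 0.1. The tissue libraries shared only a number: a replicate block there left 100 genes and 0 members between the stages (Kcnma1 at an adjusted p of 0.0591). Over culture days 334 genes passed, and 82 with no filter, 0 without day 5, 783 with the replicate block and 1186 with voom and the block, with 1 member under each block and 1 without the replicate number 2 libraries. Between days 14 and 7, voom with the block passed 116.

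Leaving out 1 library at a time gave 50 (without E17.5 LG replicate 1) to 1736 (without adult LG replicate 3) genes and 0 to 1 members between the embryonic stages, 11 (without day 5 replicate 1) to 384 genes over culture days, and 3770 to 8135 genes and 2 to 3 members at LGSC day 7 against adult LG. It also turned signs. Atp1b1 at E19.5 against adult LG ranged from −0.5452 to 0.0473 (the latter without adult LG replicate 3), Fxyd3 between the stages from −0.0146 (without E17.5 LG replicate 1) to 0.1954, and Fxyd3 at LGSC day 7 from −0.5715 to 0.0526 (without its replicate 2). Between days 14 and 7, Slc4a2 ranged from −0.0795 to 0.0465 (without day 14 replicate 1) and Kcnn4 from −0.2632 (without day 14 replicate 1; −0.1443 without day 7 replicate 2) to 0.4278. The slope of Kcnn4 ranged from −0.0303 (without day 14 replicate 1; −0.0080 without day 5 replicate 2 and −0.0027 without day 7 replicate 2) to 0.0424, and was −0.0019 in voom. Without the replicate number 2 libraries Fxyd3 had −0.0564 per day and −0.0490 between days 14 and 7. None of these turned values passed the test. Of all values of single genes under alternatives, 1029 kept direction and side of the threshold, 45 lost the call, 10 gained it and 18 turned. The causes were not tested. Members listed at few reads, such as Ano1, could not be judged, and the part of depth in this was not tested.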
